A study of Homo sapiens with 12 samples.

Results

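The response of HCT116 human colon cancer cells to camptothecin (CPT) was compared between ATF3-knockout (KO) cells and ATF3-WT cells. For every gene, the change with CPT in KO cells minus the change with CPT in WT cells was computed on the log2 scale, and this difference is the only quantity tested below. All 12 of the 12 Illumina HumanHT-12 v4 arrays of the study entered it, 3 in each of 4 groups. The KO groups were E11 cells given 1.5 µM CPT or the solvent DMSO for 4 h, and the WT groups were HCT116 cells with both ATF3 alleles intact given the same CPT or DMSO for 4 h. E11 is a single clone, in which exon 3 of both ATF3 alleles was targeted by homologous recombination with an adeno-associated virus vector. A difference between the genotypes therefore cannot be told apart from a difference between this clone and the parental cells. Whether the 3 replicates of a group came from separate cultures is not stated in the labels, and the p-values below may therefore rest on technical spread alone.

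ATF3 is a stress-induced transcription factor of the basic leucine zipper (bZIP) family, which binds AP-1 and CRE sites in DNA as a dimer with itself or with partners such as JUN. CPT traps topoisomerase I on DNA. The trapped enzyme stalls transcription of long genes and breaks replication forks, and the breaks activate checkpoint kinases and p53. In proliferating cells p53 then raises CDKN1A, and genes that drive mitosis lose expression. A gene whose response needs ATF3 would have a difference between genotypes, positive where the level after CPT relative to DMSO was higher in KO cells and negative where it was lower.

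The arrays of CPT-treated cells detected fewer probes than those of DMSO-treated cells in both genotypes, 13732 to 15639 on KO CPT arrays against 15427 to 16292 on KO DMSO arrays, and 13713 to 15501 on WT CPT arrays against 15399 to 16823 on WT DMSO arrays. Of 10 markers of colon epithelial cells, 8 were detected on all arrays (EPCAM, CDH1, KRT8, KRT18, KRT19, CDX2, CLDN7 and ELF3), while VIL1 and LGALS4 were detected on none. Of 19 markers of blood, vessel, fibroblast, muscle, nerve, liver and other cells on the array, 9 were detected on at least 1 array and 3 on all arrays (CD68, ACTA2 and PMEL), while the endothelial and leukocyte markers PECAM1, VWF, CDH5, PTPRC and CD3E were detected on none. The macrophage marker CD68 averaged 7.37 with CPT and 6.74 with DMSO in KO cells, against 8.80 with CPT and 8.03 with DMSO in WT cells (normalized log2 level). The summed log2 level over the 6 members tested was 9.13 to 9.97 with CPT and 8.34 to 8.90 with DMSO in KO cells, against 9.99 to 10.58 with CPT and 9.05 to 9.51 with DMSO in WT cells. At an adjusted p under 0.05 in limma, 5 of the 6 rose with CPT in each genotype. Over all genes 24.1% rose in KO cells and 24% in WT cells. CD14 and MAP2, among the 6, were detected on at most 6 and 7 arrays. The part of these markers in the results was not tested.

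Most genes that changed with CPT in one genotype also changed in the other, in the same direction. Of 10464 genes tested with limma, 5085 (48.6%) changed with CPT in KO cells at an adjusted p under 0.05, 2523 up (24.1%) and 2562 down (24.5%), and 5161 (49.3%) changed in WT cells, 2507 up (24%) and 2654 down (25.4%). Both genotypes shared 1997 rises and 2176 falls, which were 82.1% of the KO calls and 80.9% of the WT calls, and 1 gene was called in opposite directions. Across genes, which are not independent replicates, the change in KO cells and the change in WT cells had a Pearson r of 0.93. KO and WT cells differed in 443 genes under CPT (4.23%) and in 469 under DMSO (4.48%).

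**Figure D1:**
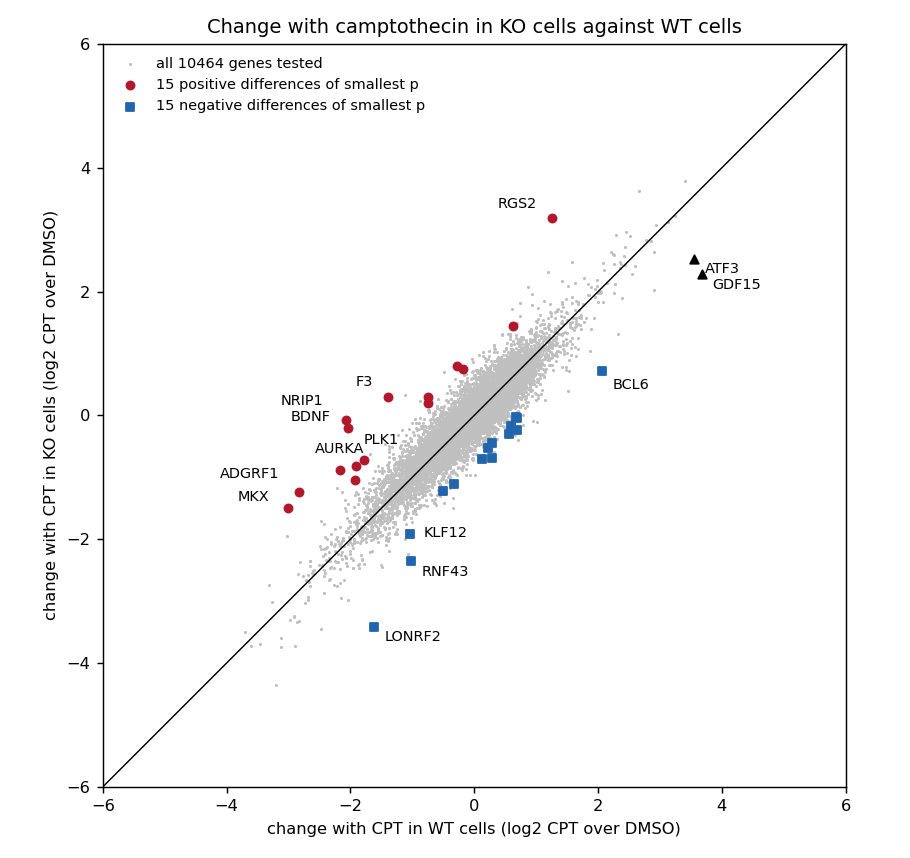
Change with CPT (log2 CPT over DMSO) in KO cells on the vertical axis against the change in WT cells on the horizontal axis, 1 point a gene for 10464 genes, with the line of equal change. Red circles and blue squares are the 15 positive and 15 negative differences of smallest p, and triangles are ATF3 and GDF15; most genes lie close to the line, with RGS2 and BDNF above it and BCL6 and LONRF2 below it.

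No gene passed the threshold for the difference in response: limma called 0 of 10464 genes (0%) at an adjusted p under 0.05, and the smallest adjusted p was 0.16. At an unadjusted p under 0.05 there were 508 genes (4.85%), 279 with a positive difference (2.67% of all genes) and 229 with a negative one (2.19%). The paired test of CPT fold changes that the study names, run over the replicate numbers, gave 893 genes at an unadjusted p under 0.05 and 0 after Benjamini-Hochberg adjustment. The median difference over all genes was 0.01, and 90% of genes lay between -0.42 and 0.44. The median SE was 0.23.

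The missed threshold does not show that the genotypes responded alike. The 95% interval of the difference had a median half-width of 0.50 on the log2 scale. It lay within -1 and 1, a range of 2-fold either way, for 9071 genes (86.7%), and within 1.5-fold either way for 3173 genes (30.3%). For the other genes a difference of that size could not be set aside at this number of arrays. Of 10464 genes tested, 36 had a difference above 1 in size, 24 positive and 12 negative. In 81 of all 10464 genes the change went one way in KO cells and the opposite way in WT cells at every replicate number. It was up in KO cells for 36 and down for 45. Whether this count exceeds that of genes without a difference was not tested.

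The genes described next were those with the smallest p in each direction among genes whose 3 replicate differences had 1 sign, and none passed. Of the 15 positive differences, the largest were in NRIP1, RGS2, BDNF, F3, ADGRF1 and MKX, all between 1.51 and 2.01. They comprise a corepressor of nuclear receptors, a regulator that shortens G protein signals, a secreted neurotrophin, the receptor that starts blood coagulation, an adhesion G protein-coupled receptor and a homeobox factor of tendon cells. The 15 negative differences were led by LONRF2, BCL6 and RNF43, at -1.79, -1.34 and -1.33. The other 9 positive differences lay between 0.82 and 1.30, and the other 12 negative ones between -0.97 and -0.71. BCL6 is a transcriptional repressor, RNF43 a ubiquitin ligase that removes WNT receptors from the cell surface, and LONRF2 a RING finger protein.

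**Figure D2:**
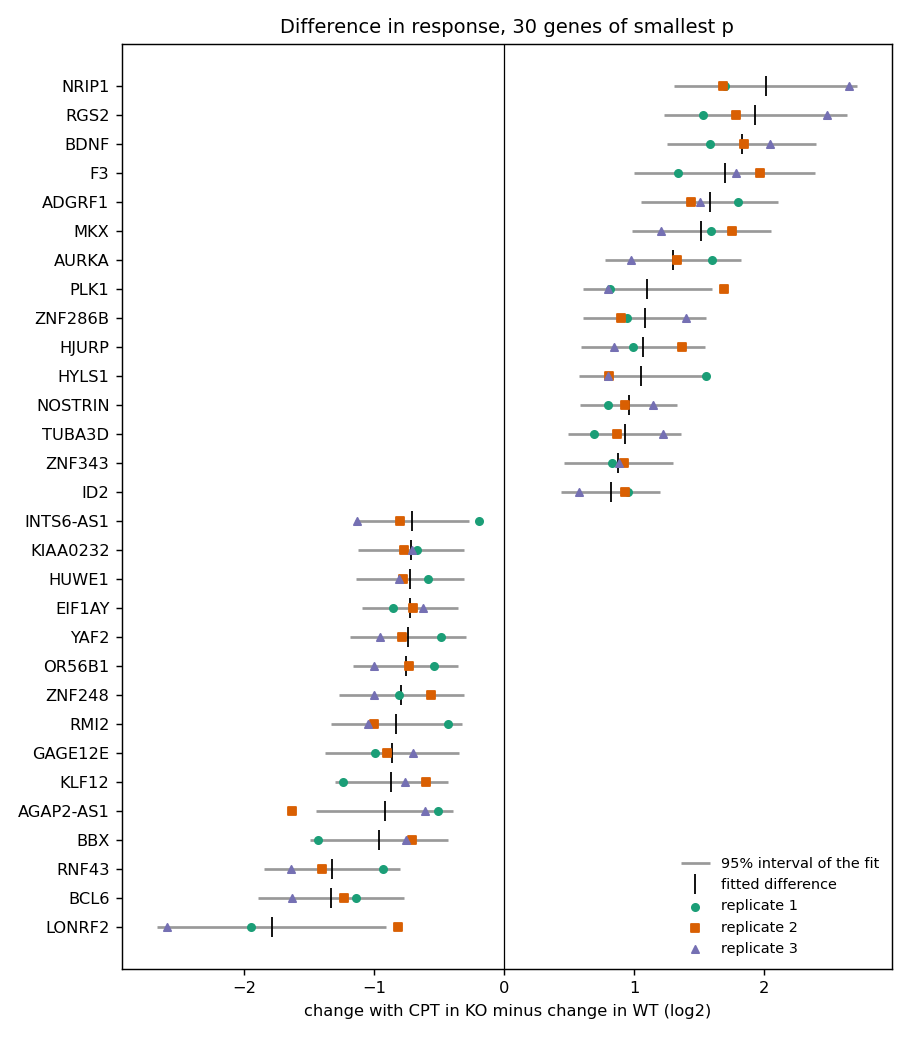
Difference in response (change with CPT in KO minus change in WT, log2) for the 15 positive and 15 negative genes of smallest p. Coloured symbols are replicates 1, 2 and 3, the black tick is the fitted difference and the grey line its 95% interval; none of these genes passed the adjusted threshold, and all were chosen among genes whose 3 replicate differences had 1 sign.

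BDNF had normalized log2 levels of 6.14, 6.36 and 6.01 with CPT and 6.22, 6.62 and 6.29 with DMSO in KO cells, against 6.16, 6.57 and 5.41 with CPT and 7.82, 8.68 and 7.74 with DMSO in WT cells. The 3 WT DMSO arrays stood above all others, and the remaining 9 overlapped. Its change with CPT in KO cells was -0.21 (adjusted p = 0.375), while in WT cells it fell by 2.04 (SE 0.19, adjusted p = 1.71e-05). The difference was 1.83 (SE 0.26, 95% interval 1.25 to 2.40, adjusted p = 0.16). Under CPT the gap of KO from WT cells was 0.12 (adjusted p = 0.774), and under DMSO it was -1.70 (adjusted p = 0.000476). The difference shares its arrays with both of these gaps, so they are set beside it as parts of it and not as further evidence. Both other BDNF probes gave smaller differences, 1.08 and 0.87.

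RGS2 was at 8.55, 8.93 and 9.33 with CPT and 5.85, 5.66 and 5.75 with DMSO in KO cells, against 10.27, 10.72 and 9.88 with CPT and 9.09, 9.23 and 8.79 with DMSO in WT cells. It rose in both genotypes, by 3.18 (SE 0.23, adjusted p = 4.06e-06) in KO cells and by 1.25 (SE 0.23, adjusted p = 0.00109) in WT cells. The difference of 1.93 (SE 0.32, 95% interval 1.22 to 2.64) had an adjusted p of 0.172. KO levels lay below WT levels under CPT, where the gap was -1.35, and under DMSO, where it was -3.28. MKX and ADGRF1 fell in both genotypes. MKX changed by -1.50 in KO cells and by -3.01 in WT cells, a difference of 1.51 (SE 0.24, adjusted p = 0.16). ADGRF1 changed by -1.25 in KO cells and by -2.83 in WT cells, a difference of 1.58 (SE 0.24, adjusted p = 0.16), with 1.68 and 1.41 from its other probes. It was detected on 1 of 3 KO CPT arrays, so its fall in KO cells is a measured value only in part.

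F3, also called tissue factor, was at 6.12, 5.73 and 5.54 with CPT and 5.61, 5.41 and 5.48 with DMSO in KO cells, against 7.09, 6.61 and 7.09 with CPT and 7.91, 8.25 and 8.82 with DMSO in WT cells. All 6 KO arrays lay below all 6 WT arrays. It had a change of 0.30 in KO cells (adjusted p = 0.3) and fell by 1.40 in WT cells (SE 0.23, adjusted p = 0.000521), and the difference was 1.69 (SE 0.32, 95% interval 0.99 to 2.39, adjusted p = 0.269). A second F3 probe gave 0.97. The promoter of F3 is shown because it holds 2 copies of the AP-1 site, the kind of sequence that ATF3 dimers with JUN bind. It spans 250 bases before to 50 after the transcript start on the minus strand, chr1:94541710-94542009 in GRCh38.p14 (RefSeq), 5′ to 3′, and the capitals mark TGANTCA, searched on both strands.
F3: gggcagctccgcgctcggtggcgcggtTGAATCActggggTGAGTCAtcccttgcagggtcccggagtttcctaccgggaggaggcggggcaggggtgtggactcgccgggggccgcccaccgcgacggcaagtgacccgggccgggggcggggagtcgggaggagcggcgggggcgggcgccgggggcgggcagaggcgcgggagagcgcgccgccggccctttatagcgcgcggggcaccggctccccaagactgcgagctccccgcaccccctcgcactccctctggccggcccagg
At least 1 match was in 374 of 8459 promoters of genes tested (4.42%) and in 7.71% of all 35116 promoters of this length. Among the 15 positive genes 13 promoters were matched by symbol and 1 held the site, which was that of F3, and among the 15 negative genes it was 0 of 14. The CRE letters TGACGTCA were in none of these 27 promoters, against 3.46% of promoters of genes tested. A match describes letters only, and no match says nothing of binding by ATF3, which also binds outside this window.

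**Figure D3:**
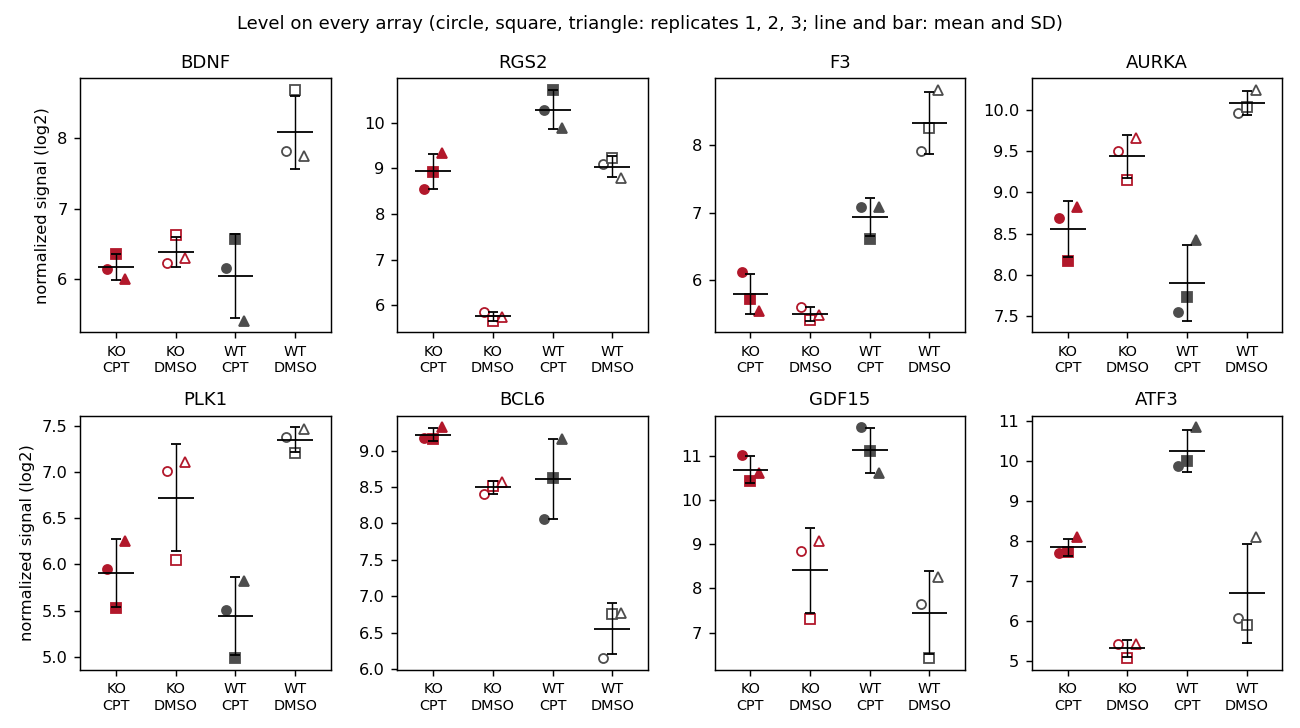
Normalized log2 signal of 8 genes on each of the 12 arrays, with KO groups in red and WT groups in grey, CPT filled and DMSO open, and the group mean with its SD (n = 3). The WT DMSO arrays stand apart for BDNF, the KO DMSO arrays for RGS2, and the KO CPT arrays lie below the WT CPT arrays for ATF3 at every replicate number.

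NRIP1 had the largest difference, 2.01 (SE 0.32, 95% interval 1.31 to 2.72, adjusted p = 0.16), but KO levels were at the detection limit. It was at 4.87, 4.70 and 4.93 with CPT and 4.68, 5.20 and 4.82 with DMSO in KO cells, against 5.76, 5.30 and 5.74 with CPT and 7.27, 7.48 and 8.29 with DMSO in WT cells. None of the KO CPT arrays and 1 of the KO DMSO arrays detected it, so no change in KO cells was measured. In WT cells it fell by 2.08 (SE 0.23, adjusted p = 4.75e-05). Among the 15 positive genes, 3 had a group in which no array detected them (20%), against 11 of the 15 negative genes (73.3%) and 1245 of all genes tested (11.9%). For such genes a fitted difference mixes a measured change with the floor of the array.

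BCL6 was detected on all arrays. It was at 9.17, 9.16 and 9.32 with CPT and 8.40, 8.51 and 8.57 with DMSO in KO cells, against 8.06, 8.62 and 9.16 with CPT and 6.15, 6.75 and 6.77 with DMSO in WT cells. BCL6 rose in both genotypes, by 0.72 (SE 0.18, adjusted p = 0.00685) in KO cells and by 2.06 (SE 0.18, adjusted p = 1.42e-05) in WT cells, and the difference was -1.34 (SE 0.26, 95% interval -1.90 to -0.77, adjusted p = 0.287). Under DMSO the KO level was higher by 1.94 (adjusted p = 0.000179). BBX, a factor with an HMG box, and HUWE1, a large ubiquitin ligase, were detected on all arrays and had differences of -0.97 and -0.72. Both fell in KO cells, by 0.68 (adjusted p = 0.00665) and by 0.44 (adjusted p = 0.0178), while the changes in WT cells were 0.28 for each and did not pass.

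For RNF43, LONRF2 and KLF12, a Krüppel-like repressor, the level after CPT reached the detection limit in at least 1 genotype, where the fall is a lower bound. RNF43 was at 4.83, 4.28 and 4.42 with CPT and 6.69, 6.82 and 7.08 with DMSO in KO cells, against 4.21, 4.25 and 4.52 with CPT and 5.14, 5.39 and 5.54 with DMSO in WT cells. No CPT array of either genotype detected it, and it was at least 3.58-fold lower with CPT in KO cells and at least 1.25-fold lower in WT cells. KLF12 likewise was at least 2.97-fold lower in KO cells and at least 1.28-fold lower in WT cells. These bounds are taken against the lowest signal of a detected probe on each array, and a pair of lower bounds fixes no difference between genotypes. LONRF2 was detected on 2 KO CPT arrays and on no WT CPT array, fell by 3.41 in KO cells and was at least 1.92-fold lower in WT cells. All 3 genes had higher levels in KO than in WT cells under DMSO, by 1.50 for RNF43, 2.43 for LONRF2 and 1.20 for KLF12 (adjusted p of 0.000598, 0.000763 and 0.000748).

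Genes of mitosis, most of which fell with CPT in both genotypes, had mostly positive differences. Of 61 tested members of a list of 63 mitotic kinases, cyclins and spindle genes, 45 fell and 1 rose in KO cells and 54 fell in WT cells at an adjusted p under 0.05, beside falls in 24.5% of all genes in KO cells and 25.4% in WT cells. The median change was -0.80 in KO cells and -1.12 in WT cells. The difference was positive for 55 of 61 members (90.2%), with a median of 0.33 and a range of -0.24 to 1.30, against a median of 0.01 and 51.4% positive over all genes. None was called after adjustment. The members share the same arrays and are not independent replicates. This list, like those below, was chosen with earlier results of these data known, so its direction is not independent evidence. At an unadjusted p under 0.05 there were 14 positive members and 0 negative, beside 2.67% and 2.19% of all genes. The median was 0.44 at replicate 1, 0.49 at replicate 2 and 0.14 at replicate 3, with 52, 55 and 42 members positive. The median gap of KO from WT cells was -0.07 under CPT and -0.39 under DMSO, and 2 members were lower in KO cells under CPT and 11 under DMSO, with none higher, beside 2.03% of all genes lower under CPT and 2.1% under DMSO. In bulk RNA, fewer cells in mitosis and less RNA per cell cannot be told apart.

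The mitotic kinase AURKA, which builds the spindle poles, had the largest difference of the list. It was at 8.69, 8.17 and 8.82 with CPT and 9.50, 9.15 and 9.66 with DMSO in KO cells, against 7.56, 7.73 and 8.42 with CPT and 9.96, 10.03 and 10.24 with DMSO in WT cells. AURKA fell by 0.88 in KO cells and fell by 2.17 in WT cells, and the difference was 1.30 (SE 0.24, 95% interval 0.78 to 1.82, adjusted p = 0.241), with 1.25 from a second probe. PLK1, a kinase of mitotic entry, fell by 0.81 in KO cells and by 1.91 in WT cells, with a difference of 1.10 (SE 0.23, adjusted p = 0.366). HJURP, the chaperone that loads the centromeric histone CENP-A, fell by 0.72 in KO cells and by 1.78 in WT cells, with a difference of 1.07 (SE 0.22, adjusted p = 0.364). In PLK1 the replicate differences were 0.81, 1.69 and 0.80, and in HJURP 0.99, 1.37 and 0.84. PLK1 was detected on 2 of 3 WT CPT arrays, with its lowest level, 4.99, at replicate 2. Its fall in WT cells is therefore a measured value only in part. Members of the list named after their values were seen include the cyclin CCNA2, which fell by 1.24 in KO cells and by 1.91 in WT cells, and the kinesin KIF11, which fell by 1.70 and by 2.48. At the other end were ANLN and NUF2, with differences of -0.19 and -0.24. HYLS1, a centriole gene outside the list, had a difference of 1.05 (SE 0.22, adjusted p = 0.366).

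The promoters of PLK1 and HJURP are shown because they hold the cell cycle genes homology region (CHR), a short element through which the MuvB complexes repress or activate many mitotic genes. Each runs 5′ to 3′ from 250 bases before to 50 after the transcript start in GRCh38.p14 (RefSeq), PLK1 on the plus strand at chr16:23678639-23678938 and HJURP on the minus strand at chr2:233854486-233854785. Capitals mark the CHR letters TTTGAA, searched on both strands.
PLK1: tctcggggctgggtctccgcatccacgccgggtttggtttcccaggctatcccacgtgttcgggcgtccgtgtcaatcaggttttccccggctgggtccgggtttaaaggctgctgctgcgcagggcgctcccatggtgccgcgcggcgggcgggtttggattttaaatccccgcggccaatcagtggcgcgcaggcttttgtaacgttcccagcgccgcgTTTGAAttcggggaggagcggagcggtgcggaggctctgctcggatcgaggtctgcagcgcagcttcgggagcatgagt
HJURP: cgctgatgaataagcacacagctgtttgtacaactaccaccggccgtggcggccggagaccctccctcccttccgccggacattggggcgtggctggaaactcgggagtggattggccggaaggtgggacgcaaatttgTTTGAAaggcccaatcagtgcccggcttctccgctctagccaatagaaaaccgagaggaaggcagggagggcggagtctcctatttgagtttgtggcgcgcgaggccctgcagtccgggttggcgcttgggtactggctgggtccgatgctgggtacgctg
Of the 61 mitotic genes, 53 had a promoter matched by symbol and 36 of these (67.9%) held TTTGAA, against 808 of 8459 promoters of genes tested (9.55%) and 15.2% of all promoters. The share was 30.8% among the 13 matched promoters of the 15 positive genes, 14.3% among the 14 of the negative genes, 2.38% among 42 of DNA replication genes and 0 of 27 among p53 targets. The match describes the letters and is no evidence of use in these cells.

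Genes of DNA replication, the other large group of proliferation genes, did not share the direction of the mitotic list. Of 47 tested members of 50, 10 had a positive difference (21.3%), beside 51.4% of all genes, and the median was -0.13. At replicates 1, 2 and 3 the median was -0.06, -0.37 and -0.04. At an unadjusted p under 0.05 there were 2 negative members and no positive one, beside 2.19% and 2.67% of all genes. RRM2, a subunit of the ribonucleotide reductase that makes deoxynucleotides, had a difference of -0.79 (SE 0.28, 95% interval -1.41 to -0.16, adjusted p = 0.921), and the replicative helicase subunit MCM4 one of -0.57 (SE 0.26, adjusted p = 1). RRM2 fell by 1.42 in KO cells and by 0.63 in WT cells (adjusted p of 0.00023 and 0.0226). MCM4 fell by 0.84 in KO cells (adjusted p = 0.00316) and its change of -0.27 in WT cells did not pass. A second MCM4 probe gave a smaller difference, -0.27, with changes of -0.42 in KO cells and -0.16 in WT cells. The replicate differences of RRM2 were -0.10, -0.57 and -1.70, and its difference was -0.33 without replicate 3 and -1.13 without replicate 1.

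**Figure D4:**
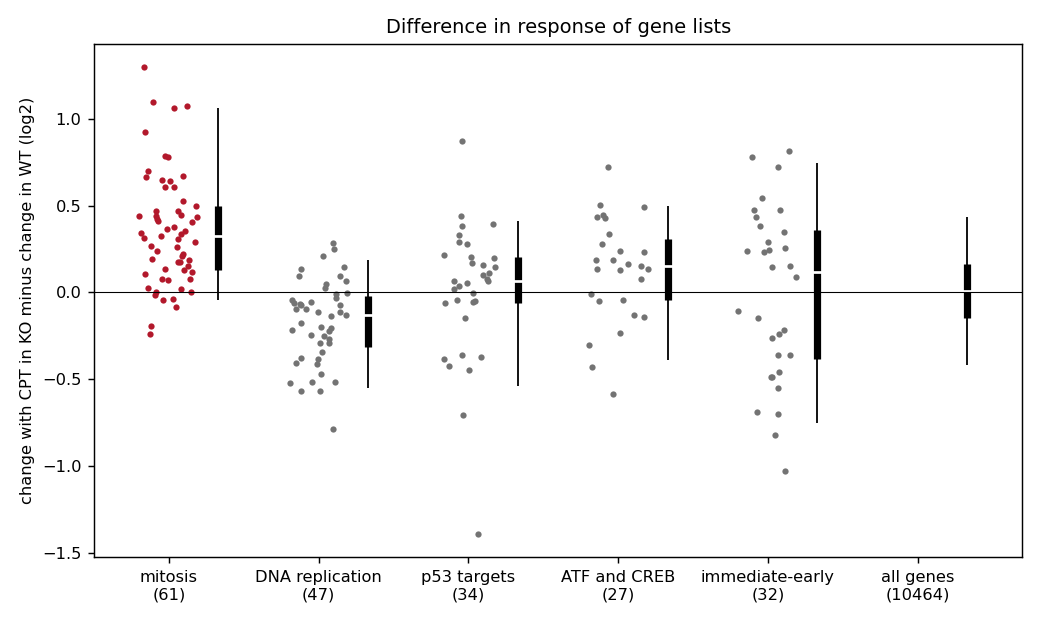
Difference in response (log2) of the tested members of 5 gene lists, 1 point a gene, and of all 10464 genes, with the number of genes under each name. The black bar beside each list spans the 25th to 75th percentile with the median in white, and the thin line the 5th to 95th; the mitotic genes (red) lie mostly above 0, with a median of 0.33, and the replication genes mostly below, with a median of -0.13.

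The targets of p53 rose with CPT in both genotypes. Of 34 tested members of 40, 24 rose and 1 fell in KO cells, and 20 rose and 1 fell in WT cells, beside rises in 24.1% of all genes in KO cells and 24% in WT cells. The median change was 0.77 in KO cells and 0.71 in WT cells. The difference had a median of 0.06 and was positive for 21 members (61.8%), beside 51.4% of all genes. At replicates 1, 2 and 3 the median was -0.05, -0.03 and 0.24, so its sign was not fixed. The 95% interval lay within -1 and 1 for 26 of the 34 members, beside 86.7% of all genes. Part of the genes of this list come from the study of these samples, so its direction is not independent evidence. CDKN1A, the p21 inhibitor of cyclin-dependent kinases, was at 13.02, 12.96 and 12.72 with CPT and 10.56, 10.32 and 10.69 with DMSO in KO cells, against 13.27, 12.97 and 12.56 with CPT and 10.59, 10.00 and 11.15 with DMSO in WT cells. It rose by 2.38 in KO cells and by 2.35 in WT cells, and the difference was 0.02 (SE 0.35, 95% interval -0.75 to 0.79). The replicate differences were -0.23, -0.33 and 0.62, and a second probe gave -0.59, so the sign of the difference was not fixed. For the damage sensor GADD45A the difference was 0.14 (95% interval -0.29 to 0.58), for the apoptosis effector BAX 0.17 (-0.22 to 0.55), for the p53 ligase MDM2 0.06 (-0.33 to 0.46) and for BBC3, which encodes the BH3-only protein PUMA, -0.38 (-0.89 to 0.12). These intervals all contain 0 and lie within 2-fold either way. A second GADD45A probe gave 0.32. A second BAX probe gave -0.05, with changes of only 0.05 in KO cells and 0.10 in WT cells. MDM2 was detected on only 1 of 3 CPT arrays in each genotype. Its interval therefore describes signal near the detection limit and does not show a like response.

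GDF15 and AEN were the p53 targets with the smallest p. GDF15, a secreted cytokine of the TGF-beta family, was at 11.02, 10.42 and 10.60 with CPT and 8.84, 7.30 and 9.07 with DMSO in KO cells, against 11.64, 11.10 and 10.62 with CPT and 7.66, 6.42 and 8.27 with DMSO in WT cells. At every replicate number the KO DMSO array was above the WT DMSO array, but the groups overlapped. GDF15 rose by 2.28 (SE 0.37, adjusted p = 0.000557) in KO cells and by 3.67 (SE 0.37, adjusted p = 3.04e-05) in WT cells, with a difference of -1.39 (SE 0.52, 95% interval -2.54 to -0.24, adjusted p = 0.925). AEN, a nuclease of apoptosis, rose by 1.32 (SE 0.19, adjusted p = 0.000271) in KO cells, and its change of 0.45 in WT cells did not pass (adjusted p = 0.0736). Its difference was 0.87 (SE 0.27, 95% interval 0.28 to 1.47, adjusted p = 0.844), with 0.69 from a second probe.

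ATF3 transcript was still measured in the KO clone. It was at 7.68, 7.73 and 8.09 with CPT and 5.42, 5.06 and 5.43 with DMSO in KO cells, against 9.88, 10.00 and 10.84 with CPT and 6.06, 5.89 and 8.10 with DMSO in WT cells. Every KO array lay below the WT array of the same treatment and replicate number. ATF3 rose by 2.53 (SE 0.33, adjusted p = 0.000128) in KO cells and by 3.56 (SE 0.33, adjusted p = 1.77e-05) in WT cells, with a difference of -1.03 (SE 0.46, 95% interval -2.04 to -0.01, adjusted p = 1). The replicate differences were -1.56, -1.45 and -0.08, and the third goes with the WT DMSO array that read 8.10. Without replicate 3 the difference was -1.50. Where the ATF3 probe lies relative to the deleted bases was not analysed here, so the signal checks transcript and not protein. By Western blot the study found no ATF3 protein in the KO cells and no induction of it by CPT.

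No other bZIP factor passed. Among 27 tested factors of the ATF, CREB, CEBP and related families, the median difference was 0.15, and 0.05 without KO DMSO replicate 3. The difference was positive for 18 of them (66.7%), beside 51.4% of all genes. CREBL2, a small CREB-like protein detected on no WT CPT array, had a difference of 0.72 (SE 0.27, adjusted p = 0.925). BACH2, a repressor that pairs with small MAF proteins, had one of 0.50 (SE 0.19, adjusted p = 0.925), but only the 3 WT DMSO arrays detected it, so its change was not measured in KO cells and has no usable bound in WT cells. At an unadjusted p under 0.05 there were 2 members in each direction, beside 2.67% of all genes positive and 2.19% negative. The negative ones, named after their values were seen, were ATF6, a sensor of endoplasmic reticulum stress, and CREB3. ATF6 fell by 1.29 (adjusted p = 0.000112) in KO cells and by 0.71 (adjusted p = 0.00442) in WT cells, with a difference of -0.58 (SE 0.23, adjusted p = 0.927), and CREB3 had a difference of -0.43 (SE 0.18, adjusted p = 0.967). Of the FOS, JUN and MAF factors, a list that includes the ATF3 partner JUN, none of 9 was under this threshold. Their median change was 0.96 in KO cells and 1.33 in WT cells, but the median of their differences was -0.0016. The difference was positive for 4 of the 9 (44.4%), beside 51.4% of all genes. JUN rose by 2.03 (SE 0.35) in KO cells and by 2.90 (SE 0.35) in WT cells, with a difference of -0.88 (SE 0.50, 95% interval -1.97 to 0.21), which was -1.31 without WT CPT replicate 1 and -0.44 without WT DMSO replicate 2. FOSL1 had a difference of 0.59 (95% interval -0.01 to 1.19).

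Of the 32 immediate-early genes tested, which signals induce without new protein synthesis, 8 were under an unadjusted p of 0.05. The difference was positive for 5 and negative for 3, beside 2.67% and 2.19% of all genes, and ATF3 itself was among the 3. The median was 0.12. At replicates 1, 2 and 3 it was -0.05, -0.11 and 0.19, so its sign was not fixed. ID2, an inhibitor of helix-loop-helix factors, rose by 1.44 (SE 0.12) in KO cells and by 0.62 (SE 0.12) in WT cells, and had a difference of 0.82 (SE 0.17, 95% interval 0.44 to 1.20, adjusted p = 0.408). MCL1, the short-lived apoptosis inhibitor of the BCL2 family, rose by 1.32 in KO cells and by 0.54 in WT cells, with a difference of 0.78 (SE 0.23, adjusted p = 0.767), but only 0.24 from a second probe. Further members, RHOB, NR4A2, KLF5 and PPP1R15A, were named after their values were seen and had differences of -0.69, -0.70, 0.72 and 0.55. MYC fell by 0.49 (adjusted p = 0.0107) in KO cells and by 0.96 (adjusted p = 0.000202) in WT cells, and its difference was 0.48 (SE 0.19, adjusted p = 0.927), with 0.59 from a second probe.

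Ligands of growth factor families had differences of both signs, and none passed. Of 23 ligands of the EGF family and other growth factor families, 4 had a positive and 2 a negative difference at an unadjusted p under 0.05, beside 2.67% and 2.19% of all genes. The ephrin ligand EFNA1 rose by 1.08 (SE 0.13, adjusted p = 8.43e-05) in KO cells, its change of 0.32 in WT cells did not pass, and the difference was 0.77 (SE 0.19, 95% interval 0.36 to 1.17, adjusted p = 0.555). A second EFNA1 probe gave 0.75. DKK1, a secreted WNT inhibitor, was at 11.22, 11.54 and 10.90 with CPT and 11.34, 11.35 and 10.19 with DMSO in KO cells, against 11.30, 11.70 and 11.01 with CPT and 12.00, 12.34 and 11.93 with DMSO in WT cells. The WT DMSO arrays were above all others. The change of DKK1 in KO cells, 0.26, did not pass, it fell by 0.75 (adjusted p = 0.00556) in WT cells, and the difference of 1.01 (SE 0.26, 95% interval 0.45 to 1.58) had an adjusted p of 0.61. Among 25 genes of vasculature and migration, a theme named in the study, 17 were positive (68%), beside 51.4% of all genes. Their median was 0.23, and 3 positive and 1 negative were under the unadjusted threshold, beside 2.67% and 2.19% of all genes. The median was 0.05, 0.10 and 0.40 at replicates 1, 2 and 3, and 0.09 without KO DMSO replicate 3. The matricellular gene CCN2, also a target of YAP, rose by 3.62 in KO cells and by 2.65 in WT cells (difference 0.96, SE 0.38, adjusted p = 0.927). BAMBI, a decoy receptor of TGF-beta signals, rose by 1.60 in KO cells and by 0.75 in WT cells (difference 0.86, SE 0.25, adjusted p = 0.752). SPRY4, a feedback inhibitor of ERK signalling, had a difference of -0.99 (SE 0.34, adjusted p = 0.897) but -0.29 from a second probe.

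Stress response genes other than p53 targets had small median differences. Of 19 cytosolic heat shock chaperones 15 had a positive difference (78.9%), beside 51.4% of all genes, with a median of 0.14. At replicates 1, 2 and 3 there were 16, 15 and 14 positive. DNAJB1, a cochaperone of HSP70, rose by 0.96 (adjusted p = 0.00099) in KO cells with a change of 0.24 in WT cells that did not pass, and its replicate differences were 0.75, 0.71 and 0.72 (difference 0.72, SE 0.24, adjusted p = 0.897). BAG3, another HSP70 partner, rose by 0.93 (adjusted p = 0.000643) in KO cells with a change of 0.38 in WT cells that did not pass (difference 0.55, SE 0.22, adjusted p = 0.93). Of 29 genes of the amino acid and integrated stress response, which ATF4 drives and ATF3 belongs to, 2 were under the unadjusted threshold, beside 4.85% of all genes, and the median was 0.05. The asparagine synthetase gene ASNS had a difference of 0.29 with a wide interval, -0.92 to 1.50. Of 18 aminoacyl-tRNA synthetases, 3 were positive (16.7%), beside 51.4% of all genes, and the median was -0.11. At replicates 1, 2 and 3 this median was -0.29, -0.14 and 0.10, so replicate 3 went the other way.

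Among the 42 lists, 13 had no member at an unadjusted p under 0.05, and their medians lay between -0.11 and 0.06. These were the FOS, JUN and MAF factors, NF-kB genes, aminoacyl-tRNA synthetases, hypoxia and glycolysis, oxidative stress response, histones, small nucleolar RNA host genes, mesenchymal and motility genes, integrins, cytosolic ribosomal proteins, oxidative phosphorylation, markers of other cell types and housekeeping genes. In 18 lists with 1 or 2 such members the medians lay between -0.13 and 0.14, and in 11 lists with 3 or more between -0.01 and 0.33. Those 11 were the mitotic genes with 14 (23% of members tested), immediate-early genes with 8 (25%) and growth factor ligands with 6 (26.1%). WNT targets and intestinal stem cell genes had 5 (33.3%). The bZIP factors (14.8%), the vasculature list (16%) and the genes named by the study (30.8%) had 4 each. There were 3 each in ERK feedback genes (14.3%), YAP and TEAD targets (17.6%), TGF-beta, BMP and ID genes (13.6%), and histone methylation and Polycomb genes (6.82%). Over all genes the share was 4.85%. Some genes, such as GDF15 and ATF3, count in several lists. For genes of oxidative phosphorylation, the 95% interval lay within -1 and 1 for all 60 members tested, with differences from -0.32 to 0.22. The study placed 61 genes near sites with both ATF3 and p53 motifs, and 30 of them were tested. Of these 30, 16 were positive (53.3%), beside 51.4% of all genes. Their median was 0.02, and 1 was under the unadjusted threshold, which was ATF3 itself. Of the remaining genes named by the study, UTP23 and MAL2 had differences of 0.45 (95% interval 0.03 to 0.88) and 0.56 (0.00 to 1.12). MAL2 was detected on 2 of 3 KO CPT arrays and 1 of 3 KO DMSO arrays. Its KO means were 5.06 with CPT and 4.83 with DMSO, against 10.12 and 10.46 in WT cells. Its change in KO cells was therefore measured only in part. STK40 had a difference of 0.01 (-0.59 to 0.62), SPRY1 -0.07 (-0.74 to 0.59) and GSN 0.14 (-0.32 to 0.60).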

How the data were processed

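RNA of 12 HCT116 samples was measured on Illumina HumanHT-12 v4 arrays. The authors deposited raw signal intensities of 47300 probes with detection p-values, and normalized intensities. GenomeStudio is named in the submitters' processing notes (version: not given in the sources used here). Those normalized values were scaled separately for replicate 1 and for replicates 2 and 3, so the raw signals were used.

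Signals were background-corrected with nec (offset 16), quantile-normalized over 12 arrays and put on the log2 scale in R 4.3.3 with limma 3.58.1. Probes detected at p under 0.01 on at least 3 arrays (17264) that name 1 gene (13735) were kept, and the probe of highest mean represented each of 10464 genes. Of 30098 probes that name 1 gene, 30059 had a current RefSeq symbol, 8 probes name several genes and 17194 none.

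One limma fit (lmFit, eBayes) of 4 group means with the replicate number as a block (6 residual degrees of freedom) gave the contrast, two-sided, with Benjamini-Hochberg adjustment over all genes and a threshold of 0.05. All values called changes or differences are log2, and "did not pass" means an adjusted p above 0.05. Group and replicate number came from the sample titles. Deviations from group means correlated at 0.25 to 0.69 between 18 array pairs that share a number but not a group, and all 12 arrays matched best with their own number, so the numbers pair the samples. The study names a paired test of fold changes.

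Named genes are ATF3, the 15 positive and 15 negative differences of smallest p with 3 replicate differences of 1 sign, the 2 of smallest p in each of 42 lists, and genes in the study's text. The members and lists were chosen with earlier results of these data known. The fit was tested on simulated data with known differences. Alternatives were the block, scaling, background correction, the authors' values, detection filters, variance model, probe choice, and leaving out arrays.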

Additional observations from a re-analysis of the deposited data

How the results depend on the processing

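The count of 0 called genes was also found without the replicate block, with the authors' values, under both other detection filters, in every set that left out a replicate number or an array, with limma on the 3 replicate differences, with the methods' t-test, with an intensity trend and robust prior, and with 1 test a probe. With median scaling 3 genes were called, all with a positive difference (BDNF, ADGRF1 and NRIP1, smallest adjusted p = 0.0224), and without background correction 2 were called (ADGRF1 and MKX, smallest adjusted p = 0.00235). The cause was not tested. Median scaling moved the median of all genes to 0.11, so differences under it are read against that shift. Of the 651 genes at an unadjusted p under 0.05 under it, 566 were positive and 85 negative.

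The number at an unadjusted p under 0.05, 508 with the replicate block, was 198 without it. It was 330 among 7478 genes detected on all 12 arrays, 955 among 20036 genes with no detection filter, where the number tested differs, 1218 with limma on the 3 differences and 893 with the methods' t-test. With all kept probes, named or not, an alternative chosen after seeing the data, it was 843 of 17261. Leaving out a replicate number or an array gave 226 (without replicate 2) to 832 (without WT CPT replicate 3).

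The median of the mitotic list lay between 0.19 and 0.45 over all alternatives, that of DNA replication between -0.26 and -0.01, and that of p53 targets between -0.03 and 0.16. Among named genes the sign of ASNS, CDKN1A, GADD45A, GSN, MDM2, SPRY1 and STK40 turned in at least 1 alternative. With 3 arrays a group the number of arrays limits the precision, and probes near background understate a fold change.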
